A study of Mus musculus with 6 samples.

Results

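Lymphocytes caught in division were selected from single-cell RNA libraries of the mouse pancreatic lymph node, the node that drains the pancreas. A cell was kept when its barcode held at least 500 UMIs (unique molecular identifiers, each standing for 1 captured RNA molecule), at least 300 genes and at most 10% mitochondrial UMIs. It was called cycling when at least 3 of 7 genes had a UMI: Mki67, Top2a, Birc5, Ube2c, Cdk1, Ccnb2 and Nusap1. These values chose the members, so the high level of the 7 genes in them is a description. The rule found 540 cycling cells among 56310 kept cells. Of these, 250 met the T cell gate (a UMI of Cd3d, Cd3e or Cd3g and none of Cd79a) and 168 met the B cell gate (a UMI of Cd79a or Ms4a1 and none of Cd3e). A further 59 held both Cd3e and Cd79a, 1 met both gates, and 62 held no gene of either gate.

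The libraries came from 6 mice, each a separate animal processed with the 10x droplet method. All 6 mice carried a floxed gene, 3 of them lacked the CD4-Cre transgene (CD4-Cre-, here Cre-negative 1 to 3), and 3 carried it (CD4-Cre+, here Cre-positive 1 to 3). CD4-Cre is driven by Cd4 regulatory sequence and acts early in thymic T cell development, so in such mice recombination is found in both CD4 and CD8 T cells and is not aimed at B cells. Strain, sex, age and the floxed part of the gene are not given in the sources used here. The mice had 77, 90 and 68 cycling cells in the Cre-negative group and 128, 102 and 75 in the Cre-positive group.

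A lymphocyte that meets its antigen leaves the resting state, copies its DNA with the MCM helicase and polymerases in S phase, and then builds a spindle to separate the chromosomes in mitosis. Lymph nodes are the main site of this clonal expansion. Most T and B cells in a node are small resting cells held in quiescence by factors such as KLF2 and by inhibitors of cyclin-dependent kinases. B cells that receive T cell help divide in germinal centres, where antibody genes are mutated and switched, and some become antibody-secreting plasmablasts.

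The 7 selecting genes encode proteins of the late cell cycle. Mki67 coats mitotic chromosomes, Top2a untangles DNA, Birc5 is a subunit of the chromosomal passenger complex, Ube2c is the ubiquitin-conjugating enzyme of the anaphase-promoting complex, Cdk1 and Ccnb2 form the mitotic kinase, and Nusap1 bundles spindle microtubules. Promoters of such genes are known for CCAAT boxes, bound by NF-Y, and for the cell cycle homology region TTTGAA, bound by the DREAM and B-MYB complexes. The 120 bases before the annotated RefSeq start of 4 of them (build GRCm38.p6) are shown because these genes chose the cells and 3 of the 4 carry both letters. Each runs 5′ to 3′ toward the start of its gene, and capitals mark CCAAT or TTTGAA on either strand (ATTGG and TTCAAA on the other strand).
Top2a (chr11:99024190-99024309, minus strand): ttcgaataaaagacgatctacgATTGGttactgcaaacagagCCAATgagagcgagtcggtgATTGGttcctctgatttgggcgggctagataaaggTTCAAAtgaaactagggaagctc
Ube2c (chr2:164769809-164769928, plus strand): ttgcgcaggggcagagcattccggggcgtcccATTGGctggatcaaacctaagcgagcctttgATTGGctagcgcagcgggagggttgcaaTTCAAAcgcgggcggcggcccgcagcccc
Cdk1 (chr10:69352913-69353032, minus strand): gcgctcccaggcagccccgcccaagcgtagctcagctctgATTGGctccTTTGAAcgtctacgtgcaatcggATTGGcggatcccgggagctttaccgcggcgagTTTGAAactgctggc
Ccnb2 (chr9:70421555-70421674, minus strand): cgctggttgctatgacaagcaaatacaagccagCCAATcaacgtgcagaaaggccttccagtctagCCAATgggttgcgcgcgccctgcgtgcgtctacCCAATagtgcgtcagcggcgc
CCAAT lay in this window in 4 of the 7 genes and in 21.3% of 32851 RefSeq promoters of the same length. TTTGAA lay in it in 4 of the 7 genes (Cdk1, Mki67, Top2a and Ube2c) and in 7.12% of all promoters. Top2a carried 3 CCAAT boxes and 1 TTTGAA, Ube2c carried 2 and 1, Cdk1 carried 2 and 2, and Ccnb2 carried 3 CCAAT boxes and no TTTGAA. A match of letters is a description of the sequence.

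The depth of the libraries ranged from 47149014 to 61321105 UMIs and left 7314 to 10443 cells per mouse after the filters. Cycling cells were deeper than the rest, with a median of 16667 UMIs against 4922.5. Among T cells the medians were 19896 and 5141 UMIs, and among B cells 15336 and 4374. A doublet caller marked 60 of the 540 cycling cells (11.1%), between 5.33% and 19.5% per mouse, against 8.05% of all cells. These cells were kept, and results were repeated without them. Between 12 and 36 barcodes were shared by each pair of libraries, and none was cycling in both. In droplet data, intervals and floors cover counting error only.

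Cells with more of the selecting genes held, up to 5 or 6 of the 7, higher levels of replication genes that the rule did not use. Levels are given as CPM, the UMIs of a gene per 1000000 UMIs summed over a set of cells. In T cells the 37 genes of the replication list summed to 579 CPM in cells with none of the 7 genes, 1458 CPM with 2, 2518 CPM with 3 and 3503 CPM with all 7, after a peak of 4354 CPM with 6. In B cells they summed to 610 CPM with none, 1550 CPM with 2, 3647 CPM with 3, 4802 CPM with 5 and 2881 CPM with 7, which is below the level with 3. In T cells the spindle and kinetochore list (60 genes) kept climbing, from 1034 CPM with none to 1536 CPM with 2, 2759 CPM with 3 and 11443 CPM with 7. In T cells Hist1h1b, a linker histone made in S phase, went from 30.1 CPM with 2 genes to 89.6 CPM with 3, 72.8 CPM with 4 and 1670 CPM with 7. In B cells it went from 100.3 CPM with 2 to 244 CPM with 3 and 1467 CPM with 7. In these lists cells with 2 genes lay between cells with none and cells with 3, and levels rose across the threshold. Just outside it lay 228 cells with 2 genes (median 9131.5 UMIs) and just inside 98 with 3 (median 8214 UMIs), while 176 cells held all 7 (median 26607 UMIs). Deeper cells can show more of the 7 genes, and the part of depth in this gradient was not tested.

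**Figure D1:**
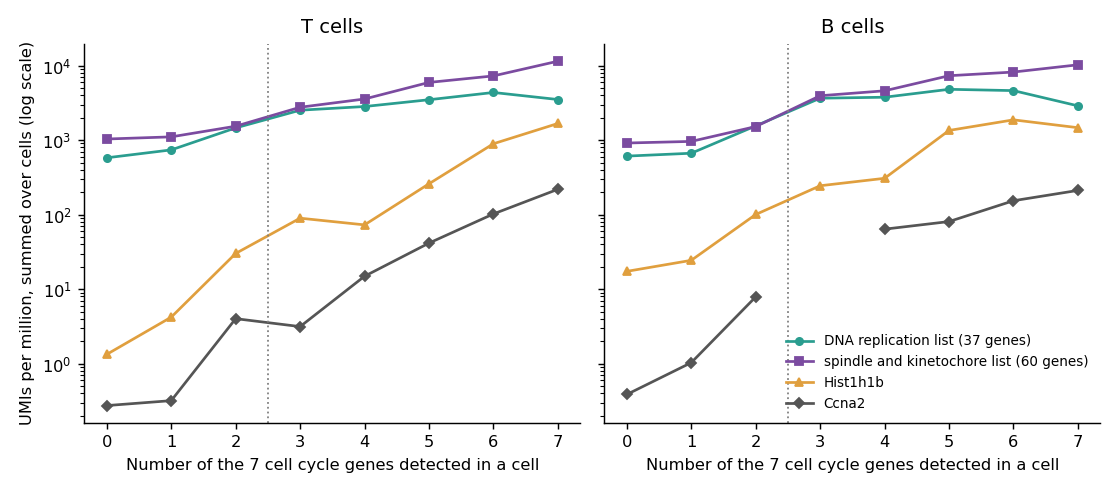
Levels (CPM, log axis) of gene lists and single genes outside the rule against the number of the 7 selecting genes with a UMI, in T cells (left) and B cells (right); the dotted line marks the threshold of 3 genes. Spindle genes climb to 11443 CPM in T cells with all 7 genes, whereas the replication list peaks at 4354 CPM with 6. Ccna2 had no UMI in the 31 B cells with 3 genes and is not drawn there.

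The selecting genes differed in how often they were seen. Among cycling T cells Top2a had a UMI in 90.0%, Birc5 in 88.8%, Mki67 in 82.8%, Ube2c in 75.6%, Ccnb2 in 73.2%, Cdk1 in 72.8% and Nusap1 in 66.8%. Among cycling B cells Birc5 led with 85.7%, followed by Top2a with 82.7% and Mki67 with 77.4%, and Ccnb2 was seen least, in 63.1%. Outside the cycling cells Top2a was found in 3.92% of T cells and 4.58% of B cells, and each of the other 6 in under 1% of either class. All 7 genes were present in 97 of 250 cycling T cells (38.8%) and 52 of 168 cycling B cells (31.0%).

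The label was checked against lineage genes that no gate used. Cycling T cells held Trbc2 in 96.4% and Trac in 92.0%, and cycling B cells held Cd79b in 88.7% and Cd74 in 96.4%. Genes of the opposite lineage were also seen: in cycling T cells Cd79b in 24.4% (102 UMIs in all, against 2454 in cycling B cells), Cd74 in 36.4% (1264 against 21606 UMIs) and Ighm in 83.2% (1182 against 5956 UMIs, where it was in 69.0% of cells). In cycling B cells Trbc2 was seen in 13.1% (25 UMIs, against 9694 in cycling T cells) and Trac in 5.95% (11 against 3615 UMIs). The 62 cells with no gate gene were shallow (median 1967 UMIs, 33 of them under 2000), and the defining genes of other lineages were present in some: Lyz2 in 17, Tyrobp in 16 and C1qa, a macrophage complement gene, in 11. They are counted as cycling, but the data do not show all of them to be lymphocytes, and they enter no T or B result. The 59 cells with both Cd3e and Cd79a had a median of 27098 UMIs, and 25.4% of them were marked as doublets. Over all UMIs they were left out of both classes, but after thinning some can enter the T or B class.

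Cycling T cells were a mixture of the CD4 and CD8 lineages. Cd4 alone was found in 110 of 250 cells (44.0%, exact 95% interval 37.8 to 50.4), Cd8b1 alone in 79 (31.6%, 25.9 to 37.8), both in 19 (7.6%) and neither in 42 (16.8%). The 42 cells with neither were shallower, with a median of 6614 UMIs. The count of Cd4-only cells was 21, 16 and 9 in the Cre-negative mice and 25, 19 and 20 in the Cre-positive mice. The count of Cd8b1-only cells was 9, 8 and 13 against 10, 21 and 18. Cd4-only cells outnumbered Cd8b1-only cells in Cre-negative 1 and 2 and Cre-positive 1 and 3, and the order was the opposite in Cre-negative 3 and Cre-positive 2. As a background for these shares, Cd4 was seen in 1.19% of cycling B cells and Cd8b1 in 1.79%.

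**Figure D2:**
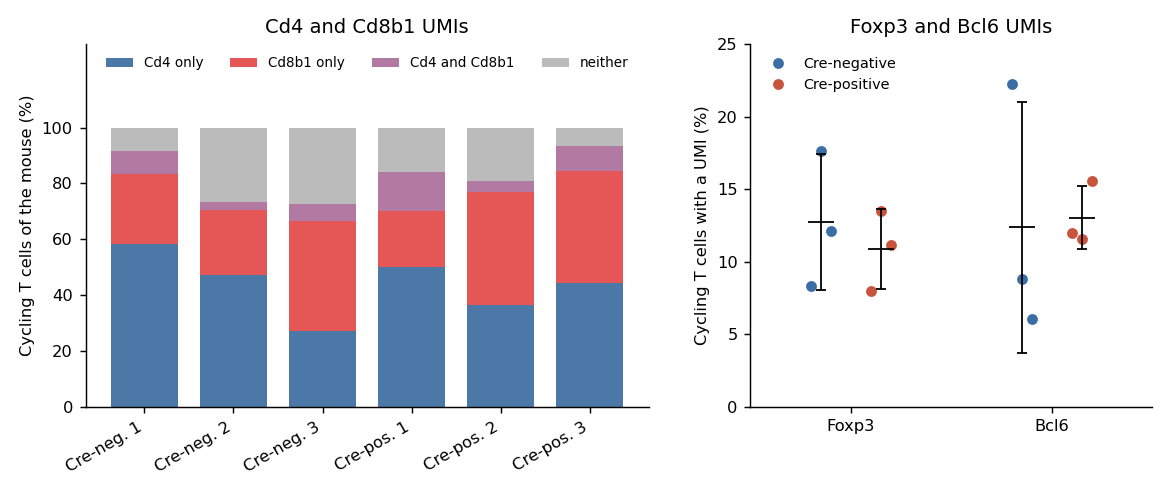
Makeup of cycling T cells by mouse, as a percent of that mouse's cycling T cells: stacked bars for Cd4 and Cd8b1 UMIs (left), and points with the group mean and SD for cells with a UMI of Foxp3 or Bcl6 (right, n = 3 mice per group). Cd4-only cells range from 27.3% in Cre-negative 3 to 58.3% in Cre-negative 1, and the groups overlap for every pattern shown.

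Foxp3, the transcription factor of regulatory T cells, had a UMI in 29 cycling T cells (11.6%, 7.91 to 16.2), of which 23 also held Cd4 and 3 held Cd8b1. By mouse the counts were 3, 6 and 4 in the Cre-negative group and 4, 7 and 5 in the Cre-positive group. Among the 26 Foxp3 cells without Cd8b1, Ikzf2 was found in 22, Ctla4 in 23, Tnfrsf18 in 22, Tnfrsf4 in 24 and Il2ra, the high-affinity receptor chain for interleukin 2, in 15. Foxp3 had a UMI in 5.92% of other T cells, yet its level in CPM went the opposite way: 10.5 ± 2.38 CPM in cycling and 21.4 ± 2.91 CPM in other T cells (SD, n = 6 mice). Cycling T cells were lower in each of the 6 mice. When every cell was thinned to 2000 UMIs, Foxp3 remained detected in 2 of 125 cycling T cells (1.6%) and 3.52% of other T cells, so no order is read from the unthinned share.

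Bcl6, the repressor that directs follicular helper T cells and germinal centre B cells, had a UMI in 32 cycling T cells (12.8%, 8.92 to 17.6). The counts per mouse were 8, 3 and 2 in the Cre-negative group and 6, 6 and 7 in the Cre-positive group. Of these cells 22 also held Cd4, 11 held Cd8b1 and 5 held Foxp3. In the 79 cells with Cd8b1 and no Cd4 it had 11 UMIs in 9 cells, and such low counts are not read as expression. The level of Bcl6 was 8.16 ± 3.64 CPM in cycling and 7.36 ± 0.891 CPM in other T cells (SD, n = 6), higher in 4 of 6 mice. Among cycling B cells Bcl6 was found in 64 of 168 (38.1%), at 47.1 ± 15.2 CPM against 30.7 ± 1.86 CPM in other B cells. Thinned to 2000 UMIs the shares of cells with Bcl6 were 6.25% and 5.77% in B cells and 3.2% and 1.35% in T cells.

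Other subset genes of cycling T cells were compared in the same way. Cd4 stood at 84.7 ± 19.2 CPM in cycling and 132 ± 7.34 CPM in other T cells (SD, n = 6), and Cd8b1 at 128 ± 33.4 and 157 ± 15.4 CPM. Of the 79 cycling cells with Cd8b1 and no Cd4, Nkg7, a granule protein of cytotoxic cells, was present in 72, Cxcr3 in 34, Eomes in 26 and Ifng in 17. Granzyme genes were rare in them, with Gzmb in 5 cells, Gzma in 3 and Gzmk in 2. Of the 88 cycling cells with Cd4 and neither Cd8b1 nor Foxp3, Sh2d1a was present in 72, Ctla4 in 63, Icos in 60, Cd40lg in 46, Cxcr5 in 22 and Il21 in 6. These shares are read at the high depth of cycling cells and are not compared with other cells.

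Cycling cells were next described against the other cells of the same gate. The selecting genes and these contrasts come from the same cells, so the differences are a description with no test, and each count is set beside that over all genes measured at 5 CPM or more in either class. Ratios are of mean CPM plus 1. Over all genes, the median log2 ratio of cycling to other cells was -0.03 in T cells, with 26.6% of genes higher and 27.3% lower in 6 of 6 mice. In B cells it was 0.00, with 24.1% higher and 24.2% lower in 6 of 6 mice.

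DNA replication genes were high in nearly all their members. All 37 replication origin and fork genes were higher in 6 of 6 mice in T cells, with a median log2 ratio of 2.55, and 35 of 37 in B cells, with 2.72. Mcm5, a subunit of the replicative helicase, stood at 166 ± 19.4 CPM in cycling and 14.5 ± 1.02 CPM in other T cells (SD, n = 6). Pcna, the sliding clamp of DNA polymerase, stood at 110 ± 23.4 against 23.9 ± 2.59 CPM. Among enzymes of nucleotide synthesis 21 of 22 were higher in 6 of 6 mice in T cells and 18 of 21 in B cells. Rrm2, the small subunit of ribonucleotide reductase, rested at 1.39 ± 0.10 CPM in other T cells and stood at 274 ± 42.3 CPM in cycling ones. Tk1, thymidine kinase, stood at 103 ± 3.92 against 0.722 ± 0.238 CPM, with the narrowest spread between mice of these genes.

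Mitotic genes outside the rule showed larger ratios. Of 60 spindle and kinetochore genes 59 were higher in 6 of 6 mice in T cells (median log2 ratio 4.42) and 58 in B cells (4.17). Ranked by plain ratios of mean CPM, with nothing added, among genes at 50 CPM or more in cycling cells, the first in either class was Hmmr, a spindle-associated hyaluronan receptor. It stood at 83.0, 91.4 and 116 CPM in cycling T cells of the Cre-negative mice and 151, 116 and 121 CPM in the Cre-positive mice, against a mean of 0.168 CPM in other T cells. In T cells Hist1h1b came next (1077 ± 370 against 1.77 ± 0.533 CPM), then Ccna2, cyclin A2 (132 ± 20.5 against 0.298 ± 0.137 CPM), and Aurkb, the kinase of the passenger complex (84.7 ± 15.7 against 0.196 ± 0.0644 CPM). In B cells Ccna2, Bub1 and Nek2 followed Hmmr. This order depends on low levels in other cells. Among the 20 largest plain ratios in each class, 15 genes were shared, among them the cyclin Ccnb1, the kinetochore genes Nuf2, Spc24 and Bub1b, the motor Kif11, and Pclaf, a PCNA-binding protein of replication forks.

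Cyclins and their partners did not all follow the same direction. Of 31 cyclins, kinases and mitotic regulators, 28 were higher in 6 of 6 mice in T cells and 27 in B cells, and 2 were lower in 6 of 6 mice in both classes: Ccnd2 and Ccnd3, the D-type cyclins of early G1. In T cells Ccnd2 stood at 122 ± 32.4 CPM in cycling and 327 ± 30.8 CPM in other cells (SD, n = 6), and Ccnd3 at 191 ± 15.8 against 332 ± 29.3 CPM. Inhibitors of cyclin-dependent kinases also split. Cdkn1b, which encodes p27, was lower in cycling T cells (80.7 ± 10.7 against 179 ± 13.9 CPM), whereas Cdkn2c, which encodes p18, was higher (56.7 ± 8.18 against 3.31 ± 0.325 CPM). The same split was present in B cells, with Cdkn1b at 34.9 ± 23.6 against 107 ± 7.80 CPM and Cdkn2c at 43.9 ± 6.89 against 3.35 ± 0.379 CPM.

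Chromatin genes were higher throughout, 37 of 37 in 6 of 6 mice in T cells and 35 of 36 in B cells. Hmgb2, a chromatin protein, stood at 3313 ± 371 CPM in cycling and 231 ± 17.8 CPM in other T cells. Growth genes moved less. Glycolysis genes had a median log2 ratio of 0.72 in T cells (11 of 17 higher in 6 of 6 mice) and 1.48 in B cells (11 of 16). MYC and nucleolar genes had 0.50 (17 of 31) and 0.62 (17 of 31), and cholesterol synthesis genes 0.56 (7 of 19) and 0.75 (10 of 20). Myc itself was lower in cycling B cells, at 34.2 ± 14.9 against 82.2 ± 7.13 CPM, in each of the 6 mice.

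**Figure D3:**
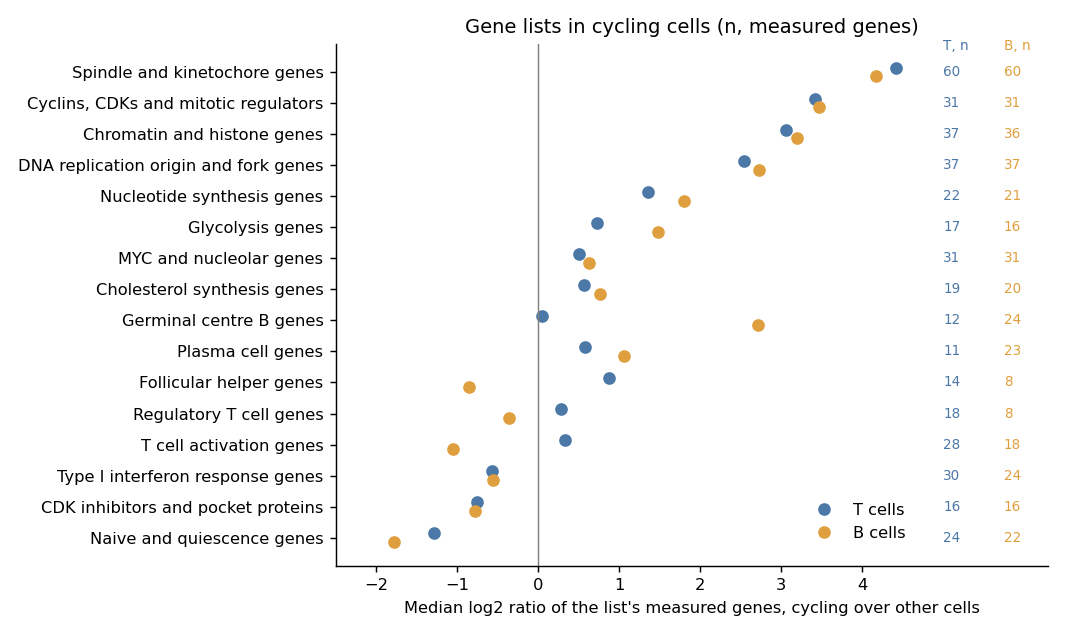
Median log2 ratio of cycling to other cells over the measured genes of each list, in T cells and B cells, with a line at 0 and the number of measured genes at the right. Spindle genes lie highest at 4.42 in T cells and 4.17 in B cells, and naive and quiescence genes lie lowest of the lymphocyte lists in both.

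Genes of the resting state were low. None of the 24 naive and quiescence genes was higher in 6 of 6 mice in T cells and 21 were lower, with a median log2 ratio of -1.29. In B cells 19 of 22 were lower, with -1.78. Klf2, the quiescence factor, stood at 324 ± 37.2 CPM in cycling and 1446 ± 128 CPM in other T cells (SD, n = 6), and Lef1, a naive T cell factor, at 164 ± 27.0 against 641 ± 49.9 CPM. Il7r, the interleukin 7 receptor that sustains resting T cells, stood at 47.6 ± 17.1 against 394 ± 67.2 CPM. S1pr1, the receptor used to leave the node, stood at 94.8 ± 16.2 against 452 ± 47.8 CPM. Type I interferon response genes were lower in 16 of 30 in T cells (median log2 ratio -0.58) and 11 of 24 in B cells (-0.56). Ly6e was an exception in T cells, at 488 ± 46.2 against 122 ± 15.9 CPM.

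T cell effector lists were mixed. T cell activation genes had a median log2 ratio of 0.33 in T cells, with 8 of 28 higher and 6 lower in 6 of 6 mice, close to the background shares. Follicular helper genes had 0.87, with 8 of 14 higher and 1 lower. Regulatory T cell genes had 0.28, with 5 of 18 higher and 5 lower. Cytotoxic and effector genes had -0.26, with 2 of 15 higher and 4 lower. Among single genes Pdcd1, the inhibitory receptor PD-1, stood at 31.7 ± 12.8 against 6.15 ± 1.09 CPM, Cxcr3 at 48.3 ± 8.69 against 12.9 ± 3.26 CPM, and Icos at 72.1 ± 21.0 against 37.8 ± 5.97 CPM, each higher in 6 of 6 mice.

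Many cycling B cells carried germinal centre genes. Rgs13, a signalling regulator of germinal centre B cells, stood at 364 ± 118 CPM in cycling and 17.0 ± 4.20 CPM in other B cells (SD, n = 6). Of 24 germinal centre genes 14 were higher and 5 lower in 6 of 6 mice, with a median log2 ratio of 2.71. At least 3 of 5 markers (Fas, S1pr2, Mef2b, Rgs13 and Bcl6) had a UMI in 81 of 168 cycling B cells (48.2%) and 68 of 12370 other B cells (0.550%). This threshold was set after the values were seen. The share was 45%, 43.2% and 47.4% in the Cre-negative mice and 51.0%, 56% and 43.8% in the Cre-positive mice. Cycling B cells with at least 3 of the markers had a median of 17972 UMIs and those with fewer 7245. All cycling B cells had a median of 15336 UMIs and other B cells 4374. The part of depth in these differences was not tested.

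Antibody genes also differed between cycling and other B cells. Ighd, the IgD chain of naive B cells, stood at 60.6 ± 26.8 CPM in cycling and 745 ± 39.9 CPM in other B cells, whereas Ighg1, a switched chain, stood at 439 ± 216 against 56.8 ± 111 CPM (SD, n = 6). Of 1319 Ighg1 UMIs in cycling B cells, 1119 lay in the 81 cells with at least 3 germinal centre markers, which held 60.8% of all UMIs of cycling B cells. Of the other switched chains those cells held 290 of 1345 UMIs of Ighg2b, 50 of 149 of Ighg3, 10 of 35 of Ighg2c and 6 of 27 of Igha. For each of these chains a single cell outside the 81 held many of the UMIs. It held 1009 for Ighg2b, 56 for Ighg3, 15 for Ighg2c and 14 for Igha. These shares are therefore not read as a difference from Ighg1. Ccr7, a homing receptor of resting lymphocytes, was low, at 24.7 ± 11.0 against 276 ± 24.6 CPM. Jchain, which joins IgM and IgA chains, stood at 853 ± 447 against 252 ± 391 CPM, and Mzb1, a chaperone of antibody assembly, at 1013 ± 299 against 382 ± 64.8 CPM. Sdc1, a plasma cell surface marker, was found in 6 cycling B cells and Prdm1, the plasma cell regulator, in 12. B cell markers as a list were lower in 15 of 19 genes in 6 of 6 mice, with Cd74 at 7126 ± 993 against 14436 ± 668 CPM.

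The first question the design poses of these cells is whether the share of dividing cells differed between the genotypes. Cycling cells made up 0.926 ± 0.208% of all cells in mice without Cre and 0.996 ± 0.222% in mice with it (SD, n = 3 each), a difference within the spread (two-sided exact permutation p = 0.7). With 3 mice against 3 the smallest p this test can give is 0.1, so no share can pass 0.05. Cycling cells made up 0.711%, 0.580% and 0.480% of T cells in the Cre-negative mice and 0.758%, 0.685% and 0.756% in the Cre-positive mice. The ranges overlapped in 1 mouse of each group, the means were 0.590 ± 0.116% and 0.733 ± 0.0413%, and the exact permutation p was 0.2 (adjusted p = 0.867 over 13 shares). After thinning every cell to 2000 UMIs, the groups no longer overlapped: 0.275 ± 0.0252% against 0.380 ± 0.0482%, from 125 cycling T cells (exact permutation p = 0.1, the smallest possible). Of the 13 shares when thinned, only the cycling share of CD4 T cells and the Cd4 share of cycling T cells also lacked overlap. Both of those rest on the same 15 cells. Thinned p-values were not adjusted over the 13 shares. Thinning used a single random draw, and other draws were not tried.

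B cells showed no such order. Cycling cells made up 1.39%, 2.00% and 0.958% of B cells in the Cre-negative mice and 1.81%, 1.42% and 0.595% in the Cre-positive mice (exact permutation p = 0.8). The highest and the lowest of the 6 mice lay in different groups, and the ranges overlapped. Among CD4 T cells without Foxp3 the cycling share was 0.553 ± 0.304% and 0.756 ± 0.219% (exact permutation p = 0.4, n = 3 each). Thinned, it was 0.0529 ± 0.0468% and 0.306 ± 0.123%, without overlap, from 15 cells (exact permutation p = 0.1, the smallest possible). Among CD8 T cells it was 0.652 ± 0.129% and 0.914 ± 0.343% (exact permutation p = 0.3, n = 3 each), and thinned the order was the reverse, 0.361 ± 0.147% and 0.259 ± 0.0548%. Among Foxp3 T cells it was 1.30 ± 0.649% and 1.25 ± 0.261% (exact permutation p = 1, n = 3 each).

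**Figure D4:**
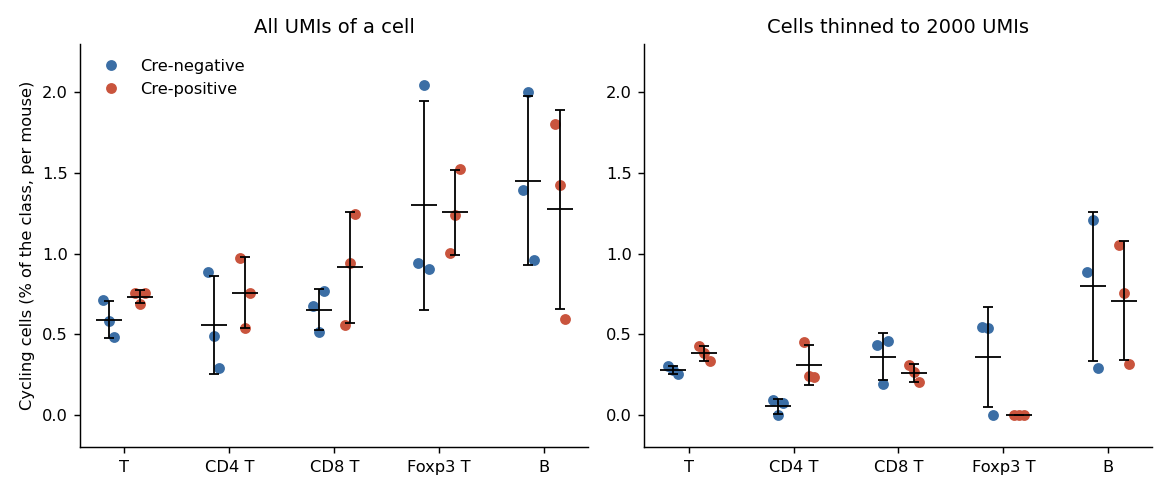
Cycling cells as a percent of T cells, 3 T cell classes and B cells, by mouse (points) with the group mean and SD (black marks), from all UMIs (left) and after thinning each cell to 2000 UMIs (right). The groups do not overlap for thinned T cells, 0.275 ± 0.0252% without Cre and 0.380 ± 0.0482% with Cre, nor for thinned CD4 T cells, which number 15 in all.

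The makeup of the cycling cells also overlapped between the groups when all UMIs were used. T cells were 46.8%, 37.8% and 48.5% of cycling cells in the Cre-negative mice and 39.1%, 51.0% and 60% in the Cre-positive mice (exact permutation p = 0.4). Cells with Cd4 were 50 ± 16.7% and 52.6 ± 11.8% of cycling T cells (p = 0.8 by exact permutation, n = 3 each). Thinned to 2000 UMIs, cells with Cd4 were 4.18 ± 3.64% and 16.7 ± 4.10%, without overlap, from 15 cells (exact permutation p = 0.1, the smallest possible). Over all UMIs, cells with Cd8b1 were 35.1 ± 9.61% and 42.4 ± 7.62% of cycling T cells (exact permutation p = 0.4). Cells with Foxp3 were 12.7 ± 4.68% and 10.9 ± 2.74% (exact permutation p = 0.6), and cells with Bcl6 12.4 ± 8.64% and 13.0 ± 2.20% (exact permutation p = 1). Bcl6 cells were 36.5 ± 5.01% and 43.0 ± 9.35% of cycling B cells (exact permutation p = 0.4). Each of the 13 adjusted p-values over all UMIs was at least 0.867.

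Within mice, classes of T cells were compared by their cycling share. Over all UMIs, Foxp3 T cells cycled at 1.28 ± 0.443% and other CD4 T cells at 0.655 ± 0.262% (SD, n = 6), higher in 6 of 6 mice by 0.622 ± 0.561 percentage points (two-sided exact sign-flip permutation p = 0.03125, the smallest possible, adjusted over 2 comparisons 0.0625). Over all mice the median depth was 4460 UMIs in other Foxp3 T cells and 5053 UMIs in other CD4 T cells. Thinned to 2000 UMIs, which is the main comparison, 2 Foxp3 cells and 15 CD4 cells were left, the shares were 0.180 ± 0.278% and 0.180 ± 0.162%, and the exact permutation p was 1. Thinned to 3000 UMIs the direction was the opposite, by -0.240 ± 0.243 percentage points, with Foxp3 cells lower in 5 of 6 mice. CD8 T cells were above CD4 T cells by 0.130 ± 0.212 percentage points after thinning, in 4 of 6 mice (exact permutation p = 0.219).

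The second question is whether dividing T cells differed in expression between the genotypes. The UMIs of the cycling T cells of each mouse were summed, and edgeR's quasi-likelihood test with Benjamini-Hochberg adjustment was run over 6830 genes. No gene passed an adjusted p of 0.05 (0% of genes), 328 (4.8%) had an unadjusted p under 0.05, and the groups did not overlap for 9.9%. DESeq2 also called none, with 104 genes at an unadjusted p under 0.05. With Cre-negative 3 left out 6 genes passed, 2 without Cre-positive 2 and 3 without Cre-positive 3. On simulated data of this size (6603 genes) the test recovered 85% of 2-fold changes, which were planted only in genes at or above the median level. Recovery at lower levels was not tested. Of the 194 calls in the simulation 10 were false.

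The genes of smallest p, none of which passed, included a spindle gene and an adhesion receptor. Cenpf, a kinetochore protein, was at 144, 144 and 186 CPM in the Cre-negative mice and 359, 262 and 225 CPM in the Cre-positive mice, without overlap (log2 fold change 0.86, SE 0.17, edgeR adjusted p = 0.158). Itga4, the α4 integrin used to enter tissues, was at 183, 170 and 176 CPM against 79.7, 124 and 92.9 CPM, each Cre-positive mouse below each Cre-negative one (log2 fold change -0.79, SE 0.16, edgeR adjusted p = 0.158). Tnfaip3, which encodes the NF-κB inhibitor A20, was at 237, 238 and 201 CPM against 146, 157 and 130 CPM (edgeR adjusted p = 0.314). The other 7 of the 10 smallest p were Bmyc, Myo1e, Rgs2 and Mta1, with lower levels in Cre-positive mice, and Ppid, Rras and Hagh, with higher levels.

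Counts of listed genes in cycling T cells are read against 48.8% of all tested genes with a higher estimate in Cre-positive mice. MYC and nucleolar genes had a higher estimate in 27 of 30, with a median log2 fold change of 0.22 against -0.01 over all genes, and 1 of them had an unadjusted p under 0.05 in that direction (2.25% of all genes). Their summed level was 8553, 6966 and 6198 CPM in the Cre-negative mice and 7596, 10490 and 7115 CPM in the Cre-positive mice, so the groups overlapped. Spindle and kinetochore genes had a higher estimate in 42 of 59, cyclins and mitotic regulators in 24 of 30, T cell markers in 14 of 16 and glycolysis genes in 12 of 15. Replication genes were even, with 17 of 36 higher, and chromatin genes had 10 of 37 higher. Among lists of T cell state, 13 of 25 activation genes, 7 of 16 regulatory T cell genes, 5 of 11 follicular helper genes, 6 of 9 cytotoxic genes, 14 of 24 naive genes and 9 of 19 interferon response genes had a higher estimate. No member of any list passed.

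Genes of the selecting rule and subset genes are given as levels. The rule genes chose the cells, so nothing is read from their values. Mki67 stood at 463 ± 16.1 CPM in cycling T cells of Cre-negative mice and 468 ± 102 CPM in those of Cre-positive mice (SD, n = 3 each), and Top2a at 650 ± 84.3 and 702 ± 121 CPM. Cd4 stood at 79.4 ± 23.7 and 90.0 ± 16.7 CPM and Cd8b1 at 129 ± 47.6 and 128 ± 22.7 CPM. Levels of another cell type also differed between mice: B cell markers in cycling T cells summed to 1709, 809 and 562 CPM in the Cre-negative mice and 343, 610 and 270 CPM in the Cre-positive mice, with Cd79a at 0 by the gate. Their part in the values above was not tested.

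In cycling B cells, 5097 genes were tested and 3 passed (0.0589%), all higher in Cre-positive mice, while 291 (5.71%) had an unadjusted p under 0.05. B cells are not the aim of CD4-Cre. Ly6d, a surface protein of early and activated B lineage cells, was at 97.9, 41.0 and 52.1 CPM in the Cre-negative mice and 339, 240 and 181 CPM in the Cre-positive mice (log2 fold change 2.09, SE 0.30, edgeR adjusted p = 0.0179). Sub1, a transcriptional coactivator, was at 297, 294 and 260 CPM against 601, 581 and 782 CPM (log2 fold change 1.21, SE 0.18, edgeR adjusted p = 0.0179). Pdia4, a disulfide isomerase of the endoplasmic reticulum, was at 39.9, 53.5 and 37.6 CPM against 104, 157 and 185 CPM (log2 fold change 1.70, SE 0.29, edgeR adjusted p = 0.0446). Each of the 3 genes separated the groups without overlap, as did 10.9% of all tested genes.

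These calls rested on few cells. In Cre-positive 1, 2 and 3 a single cell held 86 of 295, 87 of 110 and 39 of 93 Ly6d UMIs, and the cells of the first 2 were marked as doublets. The cell of Cre-positive 3 had 101792 UMIs, the most of any cycling B cell, with 405 UMIs of Jchain and 286 of Mzb1, and the same cell held the most UMIs of Sub1, Pdia4, Hsp90b1 and Ly6a in that mouse. With the richest cell of each mouse set aside gene by gene, the groups overlapped for Ly6d and Pdia4 and did not for Sub1. No gene passed without the marked doublets or with cycling cells limited to 10000 UMIs, and none without Cre-negative 2 or without Cre-negative 3. The count was 1 without Cre-negative 1 (Ly6d) and 1 without the deepest cycling cell of each mouse (Ly6a), and 14 without Cre-positive 1. DESeq2 called 13 genes, Ly6d, Sub1 and Pdia4 among them. Myeloid and dendritic markers in cycling B cells summed to 3403 CPM in Cre-positive 3 and to 714 to 1370 CPM in the other mice. Siglech, a plasmacytoid dendritic marker, was at 0 in all 6 cells with the most Ly6d. Bst2, another dendritic marker, had 0, 0 and 1 UMIs in those of the Cre-negative mice and 1, 3 and 11 in those of the Cre-positive mice. Flt3 had 0, 1 and 0 against 0, 0 and 2 UMIs. In Cre-positive 3, 1 of 5 cycling B cells with at least 5 Ly6d UMIs held Siglech, with 13 of the 93 Ly6d UMIs. The part of dendritic cells in these calls was not tested.

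**Figure D5:**
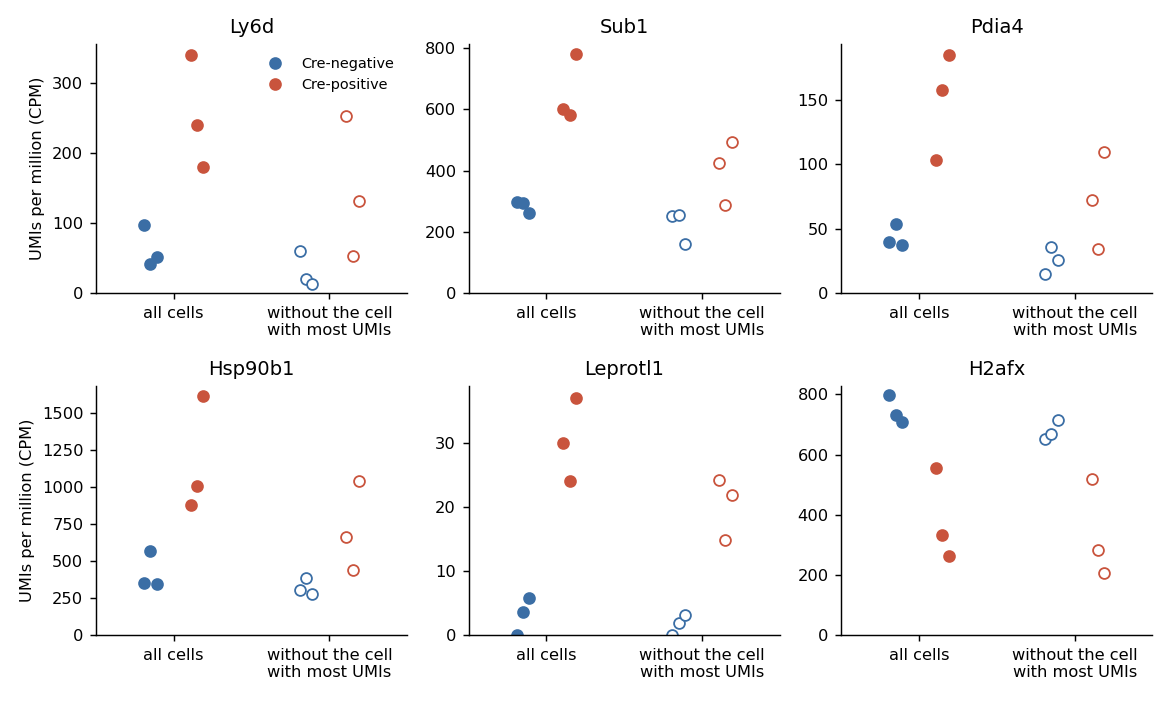
Levels (CPM) in cycling B cells by mouse for 6 genes; filled points use all cells and open points leave out the cell with the most UMIs of that gene in each mouse. Sub1, Hsp90b1, Leprotl1 and H2afx keep the groups apart in both, and Ly6d and Pdia4 do not.

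Genes of the secretory pathway followed Pdia4 among the smallest p, without passing. Hsp90b1, the chaperone GRP94, was at 352, 567 and 344 CPM in the Cre-negative mice and 876, 1004 and 1612 CPM in the Cre-positive mice (log2 fold change 1.46, SE 0.28, edgeR adjusted p = 0.203). Sec11c, a subunit of the signal peptidase, was at 217, 205 and 200 CPM against 330, 393 and 430 CPM (edgeR adjusted p = 0.166). Manf, Lman1 and Ssr2, other proteins of this compartment, and Leprotl1 and Ly6a made up the rest of the 10. Of the 24 plasma cell genes 18 were tested, 16 had a higher estimate in Cre-positive mice against 49.7% of all genes, and 9 had an unadjusted p under 0.05 in that direction against 3.2%. The summed level of the 24 genes was 4793, 3999 and 3305 CPM in the Cre-negative mice and 5005, 7053 and 8181 CPM in the Cre-positive mice. The same genes in other B cells summed to 2111, 1923 and 1935 CPM against 2692, 4397 and 2282 CPM, also without overlap. Single cells carried much of these sums: in cycling B cells the cell with the most UMIs of the list held 16.7% to 23.8% of them in the Cre-negative mice and 16.9%, 46.1% and 65.1% in the Cre-positive mice. Without that cell in each mouse, a step chosen after the values were seen, the sums were 4479, 3678 and 3290 CPM against 4372, 4300 and 3562 CPM in cycling B cells, and the groups overlapped. In other B cells they were 1943, 1910 and 1921 CPM against 2316, 3405 and 1932 CPM, also with overlap.

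Genes of S phase and of mitosis differed in sign in cycling B cells. Replication genes had a higher estimate in Cre-positive mice in 27 of 34, 9 of them at an unadjusted p under 0.05 (3.2% of all genes), with a median log2 fold change of 0.24 against -0.00 over all genes. Spindle and kinetochore genes had a lower estimate in 47 of 55, 6 of them at an unadjusted p under 0.05 (2.51% of all genes), with a median of -0.37. No member of either list passed. The replication list summed to 3078, 3097 and 3562 CPM in the Cre-negative mice and 3603, 4423 and 3405 CPM in the Cre-positive mice, with Cre-positive 3 inside the Cre-negative range. The spindle list summed to 8948, 9905 and 9978 CPM against 9270, 5964 and 7110 CPM, with Cre-positive 1 inside the Cre-negative range. Germinal centre genes had a lower estimate in 19 of 24 (3 at an unadjusted p under 0.05), and B cell markers in 16 of 19. Over all tested genes 49.7% had a higher estimate in Cre-positive mice. The germinal centre list summed to 4427, 3812 and 3658 CPM in the Cre-negative mice and 3342.5, 3840 and 2302.5 CPM in the Cre-positive mice. B cell markers summed to 19857, 21476 and 16568 CPM against 19174, 16407 and 19651 CPM. The groups overlapped for both sums.

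Whether the genotype difference in dividing cells was unlike that in other cells of the same class was tested with an interaction term. It was fitted to 12 sums per class, 2 from each mouse, blocked by mouse. Each gene had 1 dispersion for both kinds of sum, although cycling sums held 16 to 52 cells and other sums 1415 to 7537. Whether cycling sums vary more than this allows, which would favour calls, was not tested. In T cells 9 of 12571 genes passed (0.0716%). Of these, 7 genes, Fn1, Alox15, Cd5l, Serpinb2, Emilin2, Cxcl1 and Ednrb, are known from macrophages and other non-lymphoid cells and lay mainly in 1 barcode of Cre-positive 2. That barcode held every UMI that cycling T cells had of Serpinb2, Emilin2, Cxcl1 and Ednrb, and all but 1 or 2 of those of Fn1, Alox15 and Cd5l. It held 52411 UMIs, 1 Cd3 UMI, 2243 UMIs of Lyz2 and 158 of C1qa, and was not marked as a doublet. Fn1, for example, was at 0, 1.29 and 0 CPM in cycling T cells of the Cre-negative mice and at 0, 244 and 0.837 CPM in the Cre-positive mice. Myeloid and dendritic markers in cycling T cells summed to 2870 CPM in Cre-positive 2 and to 243 to 624 CPM in the other mice. When the gates needed 2 UMIs, 15 genes passed and none of these 7 was among them. With at least 4 of the 7 selecting genes required 9 genes passed, and 1 of them, Gm12840, was among the 9 above. With Cre-positive 2 left out 19 genes passed, 2 of them among the 9. The count was also 19 with Cre-negative 3 left out, 27 with Cre-negative 1 or Cre-negative 2 left out, 32 with Cre-positive 1 left out and 47 with Cre-positive 3 left out.

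The remaining calls in T cells were Itga4 and the predicted gene Gm12840. Neither overlapped between the genotypes in cycling T cells, a pattern that 9.04% of the genes tested for the interaction had. For Itga4 the log2 ratio of Cre-positive to Cre-negative mice was lower in cycling than in other T cells (interaction -0.74, SE 0.15, edgeR adjusted p = 0.0112). Tested in cycling T cells alone, Itga4 had an SE of 0.16 and did not pass (edgeR adjusted p = 0.158). Gm12840 was at 70.0, 46.3 and 31.9 CPM in the Cre-negative and 104, 79.1 and 70.3 CPM in the Cre-positive mice, with an interaction of 0.88 (SE 0.18, edgeR adjusted p = 0.00815).

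In B cells 4 of 10418 genes passed the interaction (0.0384%). Sub1 (1.13, SE 0.17, edgeR adjusted p = 0.00119) and Pdia4 (1.58, SE 0.27, edgeR adjusted p = 0.00633) differed more between genotypes in cycling than in other B cells. Leprotl1, a membrane trafficking protein, was at 0, 3.57 and 5.79 CPM in cycling B cells of the Cre-negative mice and at 29.9, 24.0 and 36.9 CPM in the Cre-positive mice (interaction 3.11, SE 0.60, edgeR adjusted p = 0.0359). H2afx, the histone variant phosphorylated at DNA breaks, was at 798, 733 and 709 CPM against 557, 334 and 264 CPM (interaction -1.21, SE 0.23, edgeR adjusted p = 0.0469). In cycling B cells the levels of each of these 4 genes did not overlap between the genotypes, a pattern that 10.8% of the genes tested for the interaction had. No gene passed without the deepest cycling cell of each mouse, and 18 passed without Cre-positive 3. With Cre-negative 3 left out 1 gene passed, with Cre-negative 1 left out 2, with Cre-positive 1 left out 7 and with Cre-positive 2 left out 9.

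Gh, the growth hormone gene, crosses these cells because its level differs by genotype in other T cells. It was at 0.0316, 0 and 0.0283 CPM in other T cells of the Cre-negative mice and 5.69, 6.87 and 8.80 CPM in the Cre-positive mice. Cycling T cells held 0 Gh UMIs in each Cre-negative mouse, which allows up to 3.23, 3.86 and 5.03 CPM (3 UMIs), and 3 UMIs in each Cre-positive mouse (3.32, 2.47 and 2.51 CPM). The mice did not overlap (two-sided exact permutation p = 0.1, the smallest possible, n = 3 each), and the levels that 0 UMIs allow reach the Cre-positive values. Cycling B cells, with 1 to 6 UMIs per mouse, were at 10.9, 1.78 and 8.68 CPM against 1.15, 13.1 and 1.94 CPM, and the groups overlapped there.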

How the data were processed

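Single-cell RNA was measured in the pancreatic lymph node of 6 mice. The authors deposited raw UMI counts per gene and barcode (31053 features, none normalized), made with Cell Ranger 6.1.2 on mm10 according to the submitters' processing notes (per the labels); which annotation release they used is not given in the sources used here. Results for the floxed gene itself, and for a few more genes, are not reported here. Cells and classes were selected as the report states, and members and gene lists were chosen with earlier results of these data known. Doublets were scored with Scrublet in scanpy 1.11.5 (0.8% expected per 1000 barcodes) and kept. Counts were summed per mouse and class, because cells are not replicates, and tested with edgeR 4.0.16 (quasi-likelihood, TMM, filterByExpr, Benjamini-Hochberg adjusted p at or under 0.05), with DESeq2 1.42.0 as an alternative. Shares were compared by exact permutation over mice. Depth differs between classes, so shares were also computed after thinning each cell to 2000 UMIs. This left out 2313 shallower cells, 53 of them cycling, 31 in the Cre-negative and 22 in the Cre-positive mice. Thinned shares were compared between genotypes at 2000 UMIs only, from a single random draw. The gates and the cycling rule were applied again to the thinned counts, so cells can change class. A cell with Cd3e and Cd79a that loses either gene can enter the T or B class. Other B cells numbered 12370 over all UMIs and 12974 after thinning. The part of such cells in the thinned shares was not tested. In simulated counts, changes were planted only in genes at or above the median level in cycling cells, with noise from the fitted dispersions. There edgeR recovered 85% of 2-fold and 99% of 4-fold changes in cycling T cells (6603 genes). In cycling B cells it recovered 76% and 99% (4895 genes). For the interaction it recovered 71% and 96% in T cells (12396 genes) and 41% and 92% in B cells (10293 genes). In the same order, false calls were 10 of 194, 14 of 189, 13 of 180 and 13 of 146. Named genes were, per comparison, up to 12 passing each way whose groups do not overlap, or the 10 of smallest p where fewer pass, the genes of the rule, Cd4, Cd8b1, Foxp3 and Bcl6, list members with the highest levels, the 20 largest ratios and Gh; other genes named as examples of a list were chosen after their values were seen. Alternatives were another tool, no filter on low counts, each mouse left out, a replicate block, stricter cell rules and thinning; gates of 2 UMIs, leaving out the deepest cell and a limit of 10000 UMIs were added after seeing the data. Testing CD4 and CD8 cycling cells separately needed 20 cells per mouse and was not run.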

Additional observations from a re-analysis of the deposited data

Results flagged for a closer look

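The interaction of genotype and cycling passed for 13 genes, by edgeR's test with Benjamini-Hochberg adjustment (values are interactions on the log2 scale, Cre-positive minus Cre-negative, cycling minus other). The test gave each gene 1 dispersion for cycling and other sums. Whether cycling sums vary more than this allows, which would favour calls, was not tested. In T cells 7 of the 13 genes had nearly all their UMIs in 1 barcode of Cre-positive 2: Fn1 (8.35), Alox15 (13.36), Cd5l (12.54), Serpinb2 (12.47), Emilin2 (11.99), Cxcl1 (10.62) and Ednrb (11.25). These estimates depend on the counts of 0 in other mice and are no measure of size. The T cell calls spread over all 6 mice were Itga4 (-0.74) and Gm12840 (0.88), each without overlap between the groups.

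In B cells the genes were Sub1 (1.13), Pdia4 (1.58), Leprotl1 (3.11) and H2afx (-1.21). With the richest cell of each mouse set aside gene by gene, the groups overlapped for Pdia4 and not for Sub1, Leprotl1 and H2afx. No sample was tested as an outlier, since groups of 3 are too small for that.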

How the results depend on the processing

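The smallest p for a share is 0.1, so no share could pass, and depth limits most shares: thinning left 15 CD4 cells, 21 with Cd8b1 and 2 with Foxp3. Differences in share are Cre-positive minus Cre-negative, in percentage points, and the cause of each change was not tested. The sign turned for the cycling share of B cells with at least 4 of the 7 genes (0.0415), for the cycling share of CD8 T cells (-0.102), the Cd8b1 share of cycling T cells (-10.2) and the Bcl6 share of cycling B cells (-5.14) after thinning, for the B share of cycling cells with at least 4 genes (1.11) or gates of 2 UMIs (0.294), for the Bcl6 share of cycling T cells with at least 4 genes (-0.372) or without doublets (-0.600), and for the Bcl6 share of cycling B cells with gates of 2 UMIs (-2.69). Leaving out each mouse gave -0.0504 to 0.177 for the share of all cells, -0.444 to 0.162 for B cells, -0.241 to 0.330 for Foxp3 T cells, -8.75 to 1.60 for the B share of cycling cells, and -5.76 to 10.9, -4.03 to 0.630 and -2.49 to 5.59 for the Cd4, Foxp3 and Bcl6 shares of cycling T cells. The Foxp3 minus CD4 difference was 0.622 over all UMIs, -0.240 thinned to 3000 UMIs, -0.00022 with cells of both gates kept, and -0.107 to 0.0899 with a mouse left out.

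Counts of genes depended on the settings. In cycling T cells (0 genes) 11 passed with no filter on low counts, 1 without doublets and 0 to 6 with a mouse left out. In cycling B cells (3 genes) 13 passed by DESeq2, 55 with no filter, 1 with at least 4 of the 7 genes, 0 without doublets, 13 at a limit of 5% mitochondrial UMIs, 1 without the deepest cells, 0 with cells limited to 10000 UMIs, and 0 to 14 with a mouse left out. For the T cell interaction (9 genes) the counts were 1 by DESeq2, 23 with no filter, 18 without doublets, 24 at 5% mitochondrial UMIs, 15 with gates of 2 UMIs, 15 limited to 10000 UMIs, 9 with at least 4 of the 7 genes (1 of them shared with the 9), and 19 to 47 with a mouse left out. For the B cell interaction (4 genes) they were 11 by DESeq2, 24 with no filter, 2 with at least 4 of the 7 genes, 1 without doublets, 18 at 5% mitochondrial UMIs, 0 without the deepest cells, 12 limited to 10000 UMIs, and 1 to 18 with a mouse left out. The interaction of Cxcl1 turned to -1.83 with at least 4 genes and -0.10 with gates of 2 UMIs, and that of Ednrb to -0.46 with at least 4 genes.

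Replicate numbers are shared by the groups, and the labels do not say whether they pair the mice. Same-numbered mice had correlations of deviations of 0.036, 0.020 and 0.103 in cycling T cells and 0.103, -0.113 and 0.107 in cycling B cells. Differently numbered mice had -0.112 to 0.0714 in cycling T cells and -0.170 to 0.101 in cycling B cells. These few values cannot settle whether the numbers stand for a pairing. With the replicate block 9 genes passed in cycling B cells and 0 in cycling T cells, and paired sign-flip p-values of the 13 shares ranged from 0.25, the smallest that 3 pairs allow, to 1.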

Other observations

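Plasma cell markers were seen in some cycling B cells. At least 4 of 6 plasma markers (Jchain, Xbp1, Sdc1, Prdm1, Irf4 and Mzb1) had a UMI in 31 of 168 cycling B cells (18.5%) and 56 of 12370 other B cells (0.453%), a threshold set after the values were seen. Deeper cells can show more of the 6 genes, and the median was 15336 UMIs in cycling and 4374 in other B cells. The part of depth in this difference was not tested. Mzb1 alone had a UMI in 70.2% of other B cells. The 81 cells with at least 3 germinal centre markers held 1917 of 2445 Jchain UMIs, 1974 of 3054 Mzb1 UMIs, 192 of 365 Xbp1 UMIs, 47 of 126 Irf4 UMIs, 10 of 37 Prdm1 UMIs and 4 of 16 Sdc1 UMIs in cycling B cells, and 60.8% of all their UMIs. Ighg2b had 1345 UMIs in cycling B cells, and 1009 of them lay in 1 cell. Ighm stood at 1825 ± 904 CPM in cycling and 2256 ± 253 CPM in other B cells (SD, n = 6), higher in cycling cells in 2 of 6 mice.

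Ikzf2, which encodes the factor Helios known from regulatory T cells, had a UMI in 22 of 26 cycling T cells with Foxp3 and no Cd8b1, in 47 of 79 with Cd8b1 and no Cd4, and in 43 of 88 with Cd4 and no UMI of Cd8b1 or Foxp3. The 26 Foxp3 cells held few UMIs of Foxp3 each, so a cell without one may still express it. The level of Ikzf2 was 176 ± 87.8 CPM in cycling and 97.9 ± 12.6 CPM in other T cells (SD, n = 6), higher in 6 of 6 mice.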
